A study of Homo sapiens with 6 samples.

Results

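The G1 cyclins and their kinases were taken as 9 genes: the D cyclins CCND1, CCND2 and CCND3, the D cyclin kinases CDK4 and CDK6, the E cyclins CCNE1 and CCNE2, their kinase CDK2, and the phosphatase CDC25A. They were found by gene name in a table of 60623 named human genes, where each name stood on a single row, and all 9 entered the test, which required a mean of 1 TPM or more (a length-scaled abundance). The study compared cells treated with XYA1353, a compound described by the submitters as a 2-iminobenzimidazole, with control cells, all labelled as the human multiple myeloma line RPMI-8226 and all taken at 48 h. There were 3 XYA1353 libraries and 3 control libraries. The labels state neither a dose nor a vehicle, nor whether the libraries came from separate cultures, and the spread behind each p-value may therefore be technical.

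D cyclins bind CDK4 or CDK6 when growth signals reach a resting or newly divided cell, and these kinases begin to phosphorylate the RB protein, which holds E2F factors inactive. E cyclins with CDK2 complete that step, E2F factors then drive the genes of DNA replication, and the cell enters S phase. CDC25A removes inhibitory phosphates from CDK2, while the CIP/KIP and INK4 inhibitors hold the kinases back. In multiple myeloma, overexpression of a D cyclin gene is an early and common event, often through a translocation that brings CCND1, CCND3 or MAF, a driver of CCND2, under an immunoglobulin enhancer.

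The libraries did not carry the transcripts that mark plasma cells. Of 14 plasma cell and myeloma markers, 13 had a mean under 1 TPM and 7 were listed at 0 in all 6 libraries, among them CD38, TNFRSF17, JCHAIN and MAF. XBP1, which many secretory and stressed cells also express, was the exception, and carried most of the list's summed level of 99.9 to 145 TPM in XYA1353 libraries and 65.7 to 71.8 TPM in control libraries. All 14 erythroid markers had a mean of at least 10 TPM, with summed levels of 6285, 9335 and 15550 TPM in XYA1353 replicates 1, 2 and 3 and of 9966, 10570 and 12380 TPM in control replicates 1, 2 and 3. All values are therefore those of libraries that carry the label RPMI-8226 but lack most plasma cell markers. On the first principal component, with 51.5% of the variance, XYA1353 replicates 1, 2 and 3 lay at -40.65, -34.02 and -17.46 and the control replicates between 25.78 and 35.08, so XYA1353 replicate 3 lay nearest to the controls.

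The promoters of the called genes CDK4 and CDC25A are shown because the transcripts of these genes moved in opposite directions. RefSeq promoter windows (GRCh38.p14, 250 bases before to 50 after a gene's start, so the last 50 are transcribed) were at hand for 5 of the 9 genes, CCND3, CCNE1, CDC25A, CDK4 and CDK6, in 8 windows. Each window is written 5′ to 3′ on the strand of its gene, with motif matches in capitals. The CDK4 window lies at chr12:57752261-57752560 and the CDC25A window at chr3:48188368-48188667, both on the minus strand.
CDK4: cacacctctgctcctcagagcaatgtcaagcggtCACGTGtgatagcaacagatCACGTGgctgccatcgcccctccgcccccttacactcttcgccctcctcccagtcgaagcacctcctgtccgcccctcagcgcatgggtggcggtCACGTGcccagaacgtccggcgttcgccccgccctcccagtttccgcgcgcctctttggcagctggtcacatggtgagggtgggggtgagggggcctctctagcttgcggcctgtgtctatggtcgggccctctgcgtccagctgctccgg
CDC25A: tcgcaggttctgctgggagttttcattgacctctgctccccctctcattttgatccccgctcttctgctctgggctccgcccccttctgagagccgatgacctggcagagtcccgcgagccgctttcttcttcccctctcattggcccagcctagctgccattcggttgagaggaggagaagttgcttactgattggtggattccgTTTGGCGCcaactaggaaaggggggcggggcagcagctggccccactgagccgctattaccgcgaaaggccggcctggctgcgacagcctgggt

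In CDK4 the capitals mark the E-box CACGTG, the letters to which MYC and related factors bind, which occurred 3 times, with its first base at 216, 196 and 101 bases before the start. The E-box was added after these sequences had been seen. It occurred in 7.26% of 35116 promoter windows of the same length and at least 3 times in 33 of them. In CDC25A the capitals mark an E2F motif, TTTGGCGC, with its first base 44 bases before the start. The E2F search covered TTTCCCGC, TTTGGCGC, TTTCGCGC and TTTGCCGC on both strands, and any of these was held by 3.31% of all windows. Of the 5 genes, CDC25A alone held an E2F match. The NF-kB motif GGANTTTCC, searched on both strands because the study links XYA1353 to that pathway, occurred in none of the 8 windows and in 1.64% of all windows. CDK6 held 1 E-box, with its first base at position 31 after the start in 1 of its windows. No matches of different motifs overlapped. A match is a string of letters, and neither a match nor its absence shows whether a factor was bound.

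XYA1353 libraries held less CCND1, CDK6 and CDC25A transcript and more CDK4 transcript than control libraries. CCND1 stood at 53.6% of its control mean, CDK6 at 61.3% and CDC25A at 68.8%, while CDK4 stood at 138%. For CCND2, CCND3, CCNE1, CCNE2 and CDK2 no change was called. In the limma fit across 13392 genes, 4 of the 9 thus passed an adjusted p of 0.05 (Benjamini-Hochberg), 1 higher and 3 lower, where 31.4% of all genes tested were called, 15.4% higher and 16.0% lower. Over all genes this was 4210 calls, or 2608 without XYA1353 replicate 2, while the 4 calls among the 9 were the same without any single library. The 2 groups of libraries did not overlap for 5 of the 9, against 47.6% of all genes tested, so neither count stood far from its background. The median log2 fold change of the 9 was -0.09, against 0.02 over all genes tested, and the median absolute change 0.20 against 0.28. All fold changes given here are differences of mean log2(TPM + 1), taken as XYA1353 minus control. In bulk libraries, fewer cells of a type, or of a cell cycle phase, and less RNA per cell cannot be told apart.

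**Figure D1:**
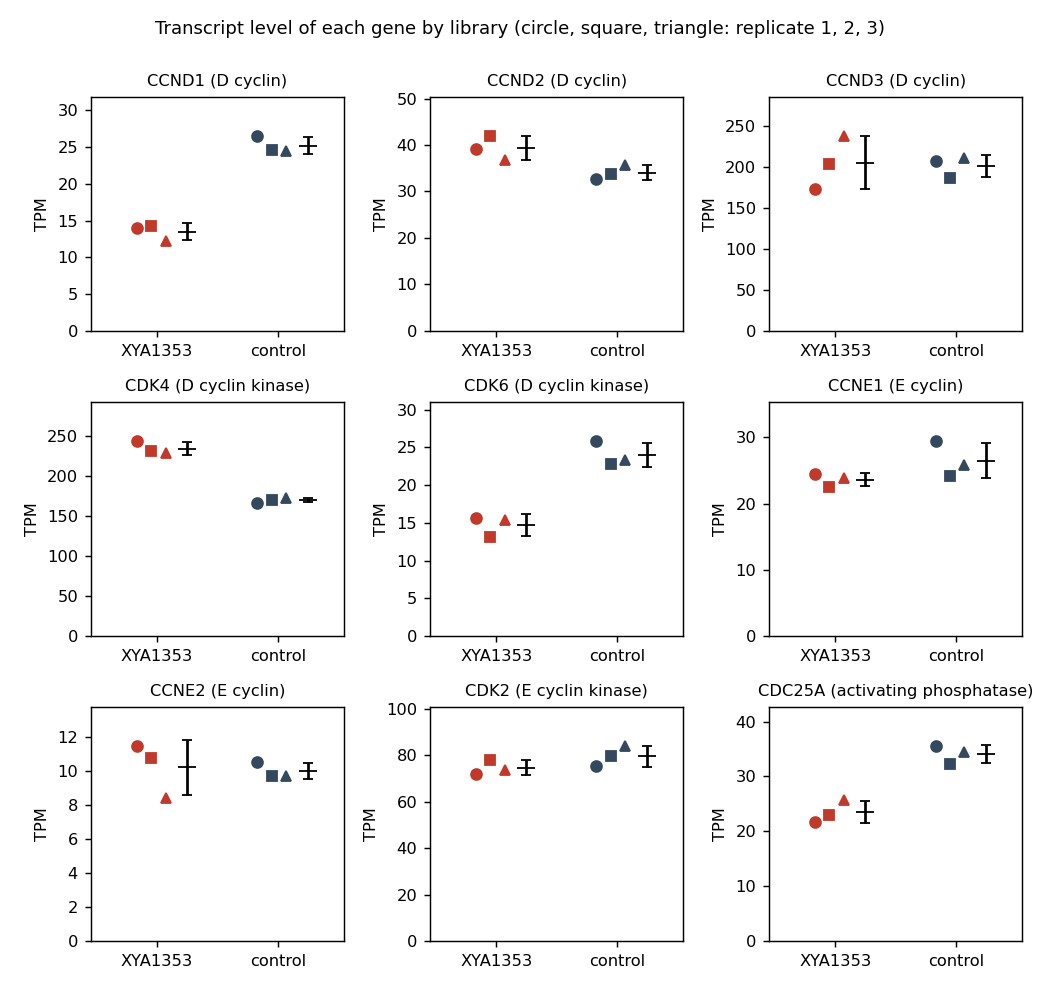
TPM of each of the 9 genes (vertical axes, from 0) in the 3 XYA1353 libraries (red) and the 3 control libraries (blue), with the mean and SD of each group in black. CCND1, CDK6 and CDC25A lie lower in all XYA1353 libraries than in any control library, CDK4 and CCND2 lie higher, and the groups overlap for the other 4.

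The D cyclins bind and activate CDK4 and CDK6, and the 3 genes differed in level and in response. CCND1 (ENSG00000110092, GRCh38 chromosome 11, 69641087 to 69654474, plus strand) measured 14.02, 14.25 and 12.15 TPM in XYA1353 replicates 1, 2 and 3, and 26.49, 24.54 and 24.42 TPM in control replicates 1, 2 and 3. Every XYA1353 library lay far below every control library. The mean was 13.5 ± 1.15 TPM in XYA1353 libraries and 25.2 ± 1.16 TPM in control libraries (SD, n = 3 each), a log2 change of -0.86 (SE 0.095; limma, adjusted p = 0.00159). Among all genes tested, 8.66% had a larger absolute change. In the annotation 10.3% of CCND1 exon bases also lie in exons of LTO1, a gene on the opposite strand, which stood at 14.88, 21.4 and 20.71 TPM in XYA1353 libraries and at 19.76, 19.49 and 18.92 TPM in control libraries. LTO1 overlapped between groups, and the part of its reads in the CCND1 values was not tested.

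CCND2 (ENSG00000118971, chromosome 12, 4273772 to 4305350, plus strand) measured 39.2, 41.96 and 36.72 TPM in XYA1353 libraries, and 32.62, 33.71 and 35.79 TPM in control libraries. The groups did not overlap, but XYA1353 replicate 3 and control replicate 3 were 0.93 TPM apart. The log2 fold change of 0.20 (95% interval 0.01 to 0.39) was not called, with a limma adjusted p of 0.1003 and an unadjusted p of 0.0406.

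CCND3 (ENSG00000112576, chromosome 6, 41934933 to 42050357, minus strand) was the most abundant D cyclin transcript in every library. It stood at 173.45, 203.65 and 237.73 TPM in XYA1353 libraries, and at 207.49, 185.93 and 210.41 TPM in control libraries. XYA1353 replicate 1 was the lowest of the 6 and XYA1353 replicate 3 the highest, so the XYA1353 group enclosed the control group, with an SD of 32.2 TPM in XYA1353 libraries and 13.4 TPM in control libraries. The log2 fold change was 0.02 (95% interval -0.26 to 0.29, limma adjusted p = 0.929). Summed erythroid markers were also lowest in XYA1353 replicate 1 and highest in XYA1353 replicate 3, and their part in the spread of CCND3 was not tested.

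CCND3 made up most of the D cyclin transcripts, and the summed level of the 3 genes did not separate the groups. It was 226.7, 259.9 and 286.6 TPM in XYA1353 libraries and 266.6, 244.2 and 270.6 TPM in control libraries, which overlap. The share of CCND1 in that sum was 5.30 ± 0.987% in XYA1353 libraries and 9.65 ± 0.549% in control libraries (SD, n = 3 each), without overlap. The shares of CCND2, at 12.8 to 17.3% in XYA1353 libraries and 12.2 to 13.8% in control libraries, overlapped. So did those of CCND3, at 76.5 to 82.9% in XYA1353 libraries and 76.1 to 77.8% in control libraries. There was 2.80 to 3.02 times as much CCND2 as CCND1 transcript in XYA1353 libraries, and 1.23 to 1.47 times as much in control libraries. These sums, shares and ratios, and those of the kinases, are descriptions and were not tested.

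CDK4 and CDK6 are close relatives that phosphorylate RB when bound to a D cyclin, and their transcripts moved in opposite directions. CDK4 (ENSG00000135446, chromosome 12, 57747727 to 57756013, minus strand) measured 243.97, 230.82 and 228.48 TPM in XYA1353 libraries, and 166.7, 170.29 and 172.28 TPM in control libraries. The lowest XYA1353 library was 56.2 TPM above the highest control library, while the control libraries spanned 5.58 TPM. CDK4 rose to 234 ± 8.35 TPM in XYA1353 libraries, against 170 ± 2.83 TPM in control libraries (SD, n = 3 each), a log2 change of 0.46 (SE 0.054; limma, adjusted p = 0.00178). A larger absolute change was seen in 28.2% of all genes tested. In GENCODE release 29, 43.2% of the CDK4 exon bases also lie in exons of TSPAN31, a tetraspanin gene on the opposite strand. TSPAN31 stood at 12.25, 11.46 and 10.74 TPM in XYA1353 libraries and at 6.57, 7.87 and 5.97 TPM in control libraries, and whether counting used the strand is not given in the sources used here. The part of the overlap in the CDK4 values was not tested.

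CDK6 (ENSG00000105810, chromosome 7, 92604921 to 92836594, minus strand) measured 15.69, 13.07 and 15.33 TPM in XYA1353 libraries, and 25.87, 22.8 and 23.3 TPM in control libraries. All XYA1353 libraries lay below all control libraries. CDK6 fell to 14.7 ± 1.42 TPM in XYA1353 libraries, against 24.0 ± 1.65 TPM in control libraries (SD, n = 3 each), a log2 change of -0.67 (SE 0.103; limma, adjusted p = 0.00368). A larger absolute change was seen in 14.2% of all genes tested. There was 15.5, 17.7 and 14.9 times as much CDK4 as CDK6 transcript in XYA1353 replicates 1, 2 and 3, and 6.44, 7.47 and 7.39 times as much in control replicates 1, 2 and 3. The 2 kinases summed to 249 ± 9.15 TPM in XYA1353 libraries and 194 ± 1.61 TPM in control libraries (SD, n = 3 each). Per D cyclin transcript this made 0.851 to 1.15 kinase transcripts in XYA1353 libraries and 0.722 to 0.791 in control libraries, also without overlap.

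**Figure D2:**
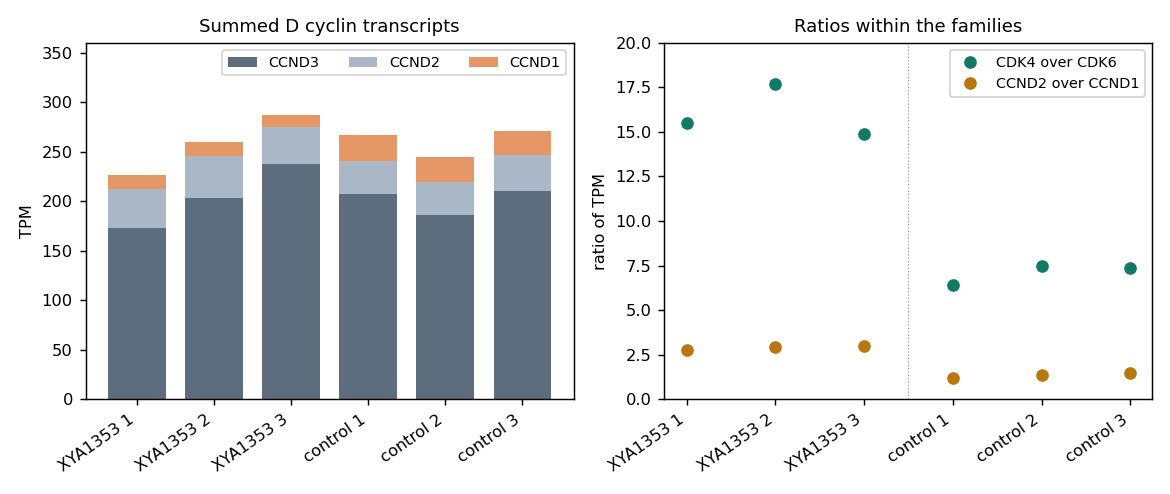
Left, stacked TPM of CCND3, CCND2 and CCND1 in each library. Right, the ratio of CDK4 to CDK6 TPM and of CCND2 to CCND1 TPM in each library, with XYA1353 libraries left of the dotted line. The summed D cyclin level overlaps between groups, while both ratios are higher in every XYA1353 library, at 14.9 to 17.7 against 6.44 to 7.47 for CDK4 over CDK6.

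The E cyclins and CDK2, which act after the D cyclins in late G1, showed no called change. CCNE1 (ENSG00000105173, chromosome 19, 29811898 to 29824308, plus strand) measured 24.5, 22.57 and 23.8 TPM in XYA1353 libraries, and 29.47, 24.18 and 25.84 TPM in control libraries. The groups overlapped through XYA1353 replicate 1 and control replicate 2, and the log2 fold change was -0.16 (95% interval -0.38 to 0.07, limma adjusted p = 0.255). CCNE2 (ENSG00000175305, chromosome 8, 94879770 to 94896678, minus strand) was the least abundant of the 9 in each group, at 11.49, 10.8 and 8.41 TPM in XYA1353 libraries and 10.56, 9.73 and 9.72 TPM in control libraries. Its log2 fold change was 0.02 (95% interval -0.29 to 0.33, limma adjusted p = 0.922). In the annotation 37.0% of CCNE2 exon bases also lie in exons of INTS8, an Integrator subunit gene on the opposite strand that stood at 33.87 to 37.96 TPM in XYA1353 libraries and 42.84 to 43.88 TPM in control libraries. The CCNE2 level is therefore uncertain.

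CDK2 (ENSG00000123374, chromosome 12, 55966769 to 55972784, plus strand), the kinase of the E cyclins, measured 72.09, 78.22 and 73.7 TPM in XYA1353 libraries, and 75.26, 79.57 and 84.13 TPM in control libraries. The groups overlapped, with a log2 fold change of -0.09 (95% interval -0.26 to 0.07, limma adjusted p = 0.356). There was 2.09 to 2.83 times as much CCNE1 as CCNE2 transcript in XYA1353 libraries and 2.49 to 2.79 times as much in control libraries. Missing the threshold does not show that these levels were the same, and the intervals given are the changes that the libraries still allow.

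CDC25A, the phosphatase that activates CDK2 (ENSG00000164045, chromosome 3, 48157146 to 48188402, minus strand), measured 21.77, 22.9 and 25.69 TPM in XYA1353 libraries, and 35.56, 32.32 and 34.42 TPM in control libraries. Every XYA1353 library was below every control library. CDC25A fell to 23.5 ± 2.02 TPM in XYA1353 libraries, against 34.1 ± 1.64 TPM in control libraries (SD, n = 3 each), a log2 change of -0.52 (SE 0.089; limma, adjusted p = 0.00542). Among all genes tested, 22.8% had a larger absolute change.

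**Figure D3:**
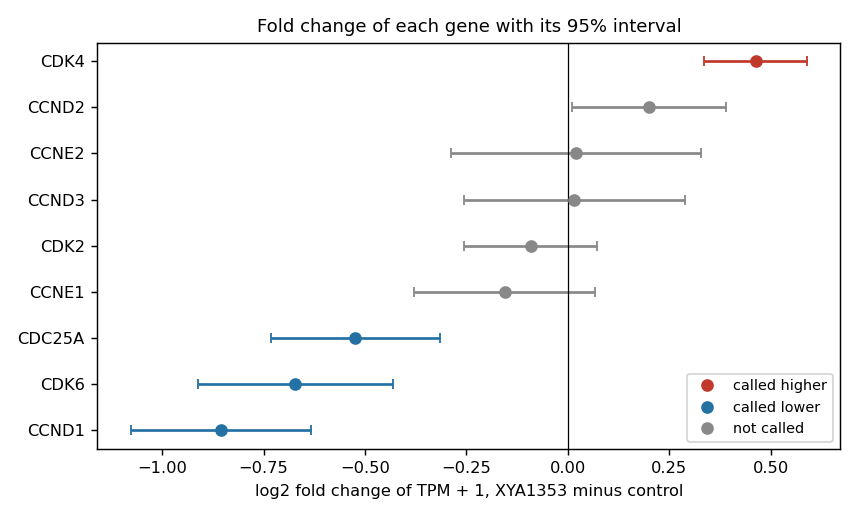
Log2 fold change of TPM + 1, XYA1353 minus control, for each of the 9 genes with its 95% interval from the limma fit; colour shows the call at an adjusted p under 0.05. CDK4 lies at 0.46 and CCND1, CDK6 and CDC25A at -0.86, -0.67 and -0.52, and the interval of CCND2, not called, starts at 0.01.

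The order of levels within each group changed with these shifts. TPM is scaled by length, so the levels of different genes can be set side by side. Length scaling does not remove reads of overlapping genes on the opposite strand. The places of CDK4, CCNE2 and CCND1, whose exons overlap such expressed genes, are therefore less certain. In XYA1353 libraries CDK4 had the highest mean level, followed by CCND3, whose values overlapped those of CDK4, then CDK2 and CCND2. CCNE1 and CDC25A, at 23.6 and 23.5 TPM, overlapped, as did CDK6 and CCND1, at 14.7 and 13.5 TPM, and CCNE2 came last at 10.2 TPM. In control libraries CCND3, at 201 TPM, lay above CDK4 in every library, and CDK2 came next at 79.7 TPM. CDC25A and CCND2, at 34.1 and 34.0 TPM, overlapped there. CCNE1, CCND1 and CDK6, at 26.5, 25.2 and 24.0 TPM, also overlapped each with the next, and CCNE2 again came last.

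Among the genes whose profile over the 6 libraries was most like that of CDK4, by the root mean square difference of log2 deviations, were CIRBP, a cold-inducible RNA-binding protein gene, at 0.02, and RPL39, of a ribosomal protein, at 0.03. Ribosomal protein genes held 25.7 to 27.8% of all TPM in XYA1353 libraries and 20.9 to 21.7% in control libraries. Mitochondrial genes held 9.85 to 11.7% in XYA1353 libraries and 14.6 to 15.1% in control libraries, also without overlap. After a rescaling without ribosomal protein and mitochondrial genes, the CDK4 log2 fold change was 0.49. That rescaling changes only the total of each library and cannot separate CDK4 from a rise shared with ribosomal protein genes, which was not tested. For CCND1 the nearest profiles were those of PUS7L, MCCC2, of leucine breakdown, and URB2, with differences of 0.06, 0.07 and 0.07 and means of 6.25, 45.3 and 6.89 TPM in XYA1353 libraries and 12.4, 80.8 and 12.6 TPM in control libraries. These were picked for likeness among 9898 genes, so the likeness itself is no result.

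Among 41 listed regulators of these kinases and of the G1/S step, 39 were tested, of which 9 rose, 6 fell and 24 were not called. That is 38.5% called, against 31.4% of all genes tested, and the list's median change on the log2 scale was -0.03. With quantile normalization 6 rose and 9 fell. Without XYA1353 replicate 1, 7 of the 39 were called, where 3182 of all 13392 genes tested were. Without XYA1353 replicate 2 or any single control library 8 were called, where 2608 to 2968 of all genes tested were. In these fits the share of calls in the list therefore lay near that of all genes tested or below it. CDKN1A, which encodes the CIP/KIP inhibitor p21, had by far the largest change of the list. It stood at 66.01, 58.71 and 44.48 TPM in XYA1353 libraries and at 7.76, 8.73 and 6.17 TPM in control libraries, a log2 change of 2.74 (SE 0.172; limma, adjusted p = 0.00099). The lowest XYA1353 library lay far above the highest control library.

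Summed over 7 inhibitor genes, the level was 180.9, 180.9 and 178.8 TPM in XYA1353 libraries and 95.6, 116.6 and 111.3 TPM in control libraries. The largest part of that difference was CDKN1A, at means of 56.4 TPM in XYA1353 libraries and 7.55 TPM in control libraries. The other inhibitors described here were chosen after their values were seen. CDKN2D, of the INK4 inhibitor p19, rose by 0.46 (adjusted p = 0.0296), a call lost under 7 of 14 alternatives, with adjusted p from 0.0509 to 0.109, among them on leaving out any library but control replicate 2. CDKN2C, of the INK4 inhibitor p18, stood at 72.5 ± 6.29 TPM in XYA1353 libraries and 59.7 ± 7.95 TPM in control libraries (SD, n = 3 each), not called (limma adjusted p = 0.101) but called in the fit with a replicate block (adjusted p = 0.0395). CDKN1B, of p27, stood at 29.8 ± 2.90 TPM in XYA1353 libraries and 24.1 ± 3.00 TPM in control libraries (limma adjusted p = 0.0956). CDKN1C, another inhibitor gene, stood at 7.71 ± 0.938 TPM in XYA1353 libraries and 6.71 ± 0.16 TPM in control libraries, with overlap (limma adjusted p = 0.320). CDKN2A and CDKN2B, which encode the INK4 inhibitors p16 and p15, were listed at 0 in all 6 libraries.

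The list held 13 genes of protein degradation, many of them of SCF ubiquitin ligases, which mark p27, cyclin E and other proteins for degradation. Of these 13, 3 rose, 4 fell and 6 were not called. That is 53.8% called, against 31.4% of all genes tested, 15.4% higher and 16.0% lower. SKP2, the substrate receptor for p27, stood at 18.92, 20.63 and 21.14 TPM in XYA1353 libraries and at 33.98, 36.48 and 34.14 TPM in control libraries, a log2 change of -0.76 (SE 0.081; limma, adjusted p = 0.0015). No XYA1353 library came near a control library. FBXW7, the receptor for cyclin E, fell to 7.35 ± 2.18 TPM in XYA1353 libraries, against 12.1 ± 1.33 TPM in control libraries (SD, n = 3 each; limma adjusted p = 0.0368). The FBXW7 call was lost under 7 of 14 alternatives (adjusted p from 0.051 to 0.114), among them on leaving out any library but XYA1353 replicate 2. The others described here were named after their values were seen. SKP1 and CUL1, the linker and scaffold of SCF, fell by 0.32 and 0.49 (limma adjusted p = 0.00548 and 0.00387), while RBX1, its RING subunit, had a log2 fold change of -0.08 and was not called (adjusted p = 0.471). BTRC, another SCF receptor, had one of -0.22 and was not called (adjusted p = 0.162). The 3 that rose also act with SCF. CKS1B, the cofactor of SKP2 for p27, rose by 0.27 (limma adjusted p = 0.018), a call lost under 5 of 14 alternatives (adjusted p from 0.0516 to 0.0594), among them on leaving out XYA1353 replicate 1 or 2 or control replicate 2 or 3. FBXO31, an F-box protein gene, rose by 0.43 (adjusted p = 0.0205), a call lost on leaving out any library but XYA1353 replicate 3 or control replicate 2, with adjusted p between 0.0586 and 0.0813. FBXO4, another, rose by 0.29 (adjusted p = 0.045), but not in the fit with a replicate block (adjusted p = 0.0704), and the call was lost under 8 of 14 alternatives in all (adjusted p up to 0.134), among them on leaving out any library but XYA1353 replicate 3.

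The RB and E2F families act downstream of the kinases, and their genes were called at about the share of all genes tested, 31.4%. Of 10 genes of E2F factors and their dimer partners 2 rose, 1 fell and 7 were not called (30.0% called), and of 3 pocket protein genes 1 rose and 2 were not called (33.3% called). The genes of this paragraph were named after their values were seen. E2F1, an activator of S phase genes, stood at 21.9 ± 0.772 TPM in XYA1353 libraries and 17.4 ± 1.29 TPM in control libraries (SD, n = 3 each; limma adjusted p = 0.0331), a call lost under 6 of 14 alternatives (adjusted p from 0.0513 to 0.111), among them on leaving out any library but XYA1353 replicate 3. TFDP1, the common dimer partner of E2F factors, fell to 59.8 ± 7.10 TPM in XYA1353 libraries, against 80.3 ± 1.80 TPM in control libraries (limma adjusted p = 0.0132), a call lost without control replicate 2 (adjusted p = 0.0509). RB1, the gene of the main target of CDK4 and CDK6, stood at 10.02 ± 1.03 TPM in XYA1353 libraries and 8.41 ± 0.712 TPM in control libraries (limma adjusted p = 0.184). RBL2, of the related protein p130, rose by 0.42 (adjusted p = 0.0452), but not in the fit with a replicate block (adjusted p = 0.0709), and the call was lost under 7 of 14 alternatives in all, among them on leaving out any library but XYA1353 replicate 3 or control replicate 3. The CDC25 relatives of CDC25A differed: CDC25B stood at 31.4 ± 2.96 TPM in XYA1353 libraries and 32.0 ± 0.616 TPM in control libraries, while CDC25C, a phosphatase that acts on CDK1 in mitosis, rose by 0.60 (limma adjusted p = 0.006).

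The other cyclins and cyclin-dependent kinases moved in both directions. Of 34 listed, 29 were tested, of which 6 rose, 6 fell and 17 were not called. This is 41.4% called, against 31.4% of all genes tested, and the median of their log2 fold changes was -0.05. CCNB1, the mitotic cyclin B1, stood at 117.02, 140.56 and 160.62 TPM in XYA1353 libraries and at 228.36, 221.35 and 208.66 TPM in control libraries. Its groups lay apart, and the log2 change was -0.66 (SE 0.113; limma, adjusted p = 0.00537). CDK9, a kinase of transcription elongation, rose by 0.47 (adjusted p = 0.00847) and CCNC, cyclin C of the Mediator kinase module, fell by 0.47 (adjusted p = 0.0293). CCNC was no longer called in the fit with a replicate block (adjusted p = 0.0608), nor under 7 of 14 alternatives in all (adjusted p up to 0.0883), among them on leaving out replicate 1 or 2 of either group. Without XYA1353 replicate 2, 6 of the 29 were called, where 2608 of all 13392 genes tested were. Without control replicate 1, 7 of the 29 were called, where 2843 of all genes tested were. In both of these fits the list's share of calls lay a little above that of all genes tested.

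Genes of S phase entry, many of them E2F targets, fell more often than they rose. Those called lower in the main fit were mostly grouped as replication licensing. Of 26 tested, 1 rose, 9 fell and 16 were not called, where 16.0% of all genes tested fell. The list's median change on the log2 scale was -0.20. With quantile normalization 3 rose and 8 fell, and over all 14 alternatives 8 to 12 fell. Of 12 genes grouped as replication licensing 7 fell, with a median of -0.33. Among the 7 were GMNN and ORC1, named after their values were seen. GMNN encodes geminin, an inhibitor of CDT1. The ORC1 call was lost under 6 of 14 alternatives (limma adjusted p from 0.0511 to 0.0891). Of 8 replication fork genes 1 fell, and of 6 grouped as nucleotide supply 1 fell, or 12.5% and 16.7%. Their median log2 fold changes were -0.13 and -0.07. Missing the threshold does not show that a gene was unchanged, so these counts do not make the fall particular to licensing. MCM6, a subunit of the replicative helicase, stood at 54.14, 57.9 and 67.92 TPM in XYA1353 libraries and at 85.04, 84.29 and 94.18 TPM in control libraries, a log2 change of -0.55 (SE 0.098; limma, adjusted p = 0.00642). MCM4, of the same helicase, fell by 0.73 (adjusted p = 0.0166), a call lost without control replicate 1 (adjusted p = 0.065) and with no filter on low values (adjusted p = 0.0588). CDT1, which loads that helicase on DNA, was the member that rose, at 169.6, 163.08 and 158.13 TPM in XYA1353 libraries and 103.95, 109.53 and 129.66 TPM in control libraries, a log2 change of 0.52 (SE 0.090; limma, adjusted p = 0.00569).

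**Figure D4:**
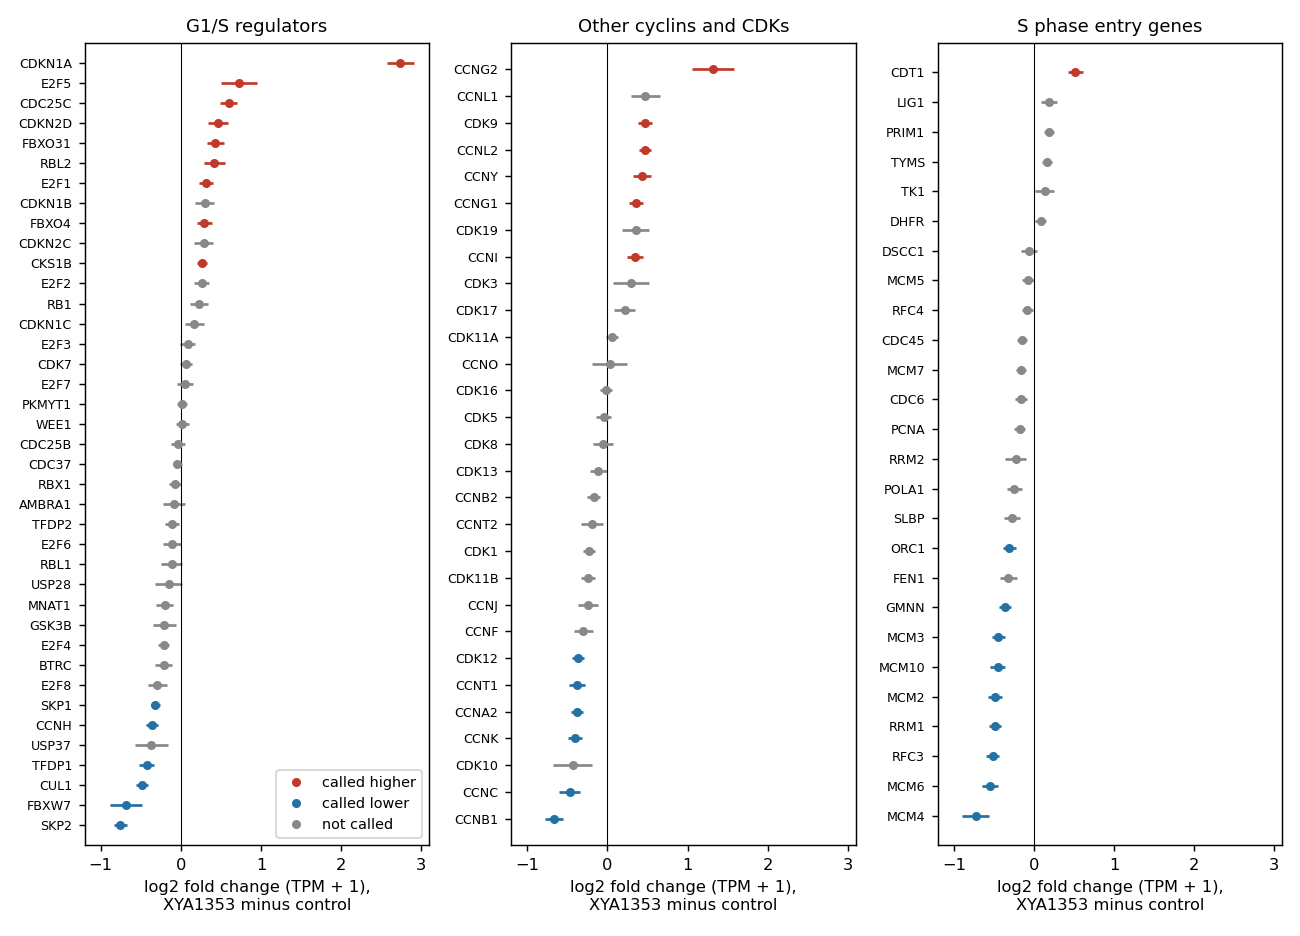
Log2 fold change of TPM + 1, XYA1353 minus control, for the tested genes of 3 lists, with bars for the standard error; colour shows the call at an adjusted p under 0.05. CDKN1A lies at 2.74, far from the rest of the G1/S regulators, and 9 of the 26 S phase entry genes were called lower.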

How the data were processed

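Per the labels' protocols, total RNA (RNeasy) was made into SMARTer mRNA libraries. The deposited values were TPM, computed by the authors per gene with a column per library; the authors' 2 group means were not used. The table had 61206 rows, 60623 with a human Ensembl identifier and a name. Mouse build GRCm38 (mm10) is named in the submitters' processing notes although the table held 0 mouse identifiers, so coordinates were taken from GENCODE release 29 (GRCh38) by identifier. The aligner, counter and strand setting were not given in the sources used here. Depth cannot be read from TPM and is unknown, so counting intervals are not given. Libraries held 12892 to 13693 named genes at 1 TPM or more.

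Named genes with a mean of at least 1 TPM (13392) were fitted as log2(TPM + 1), a scale that understates the change of low genes, with limma 3.58.1 (lmFit, eBayes with trend) in R 4.3.3, with no covariate. Calls were at a Benjamini-Hochberg adjusted p under 0.05 over all genes tested, two-sided. Descriptions used pandas 2.3.3 in Python 3.11.15. The fit was run on simulated data with independent, unpaired libraries and few changed genes. That setting is unlike these data, so the run is no support for the calls. Alternatives were a pseudocount of 0.1, no filter, a mean of at least 5 TPM, quantile normalization, median-of-ratios scaling, totals rescaled without mitochondrial and ribosomal protein genes, eBayes without trend, a replicate block, and the omission of each library in turn. Deviations from the group means, correlated across genes, gave r = 0.111, 0.114 and 0.133 for libraries sharing replicate number 1, 2 and 3, while pairs with different numbers lay between -0.116 and -0.002. The deviations within a group cancel, so positive values for shared numbers bring negative ones for different numbers, which are no separate support for pairing. The numbers, from the sample titles, were treated as pairing the libraries in the blocked alternative only, and the main fit was unpaired.

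The members and lists were chosen with earlier results of these data known. The genes named were the 9 members, in each list the 3 called genes that changed most among those averaging 5 TPM or more, and the 3 profiles nearest to the called members with the largest rise and fall, of which 1 is not reported here. Others are said to be named after their values were seen.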

Additional observations from a re-analysis of the deposited data

How the results depend on the processing

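Each of the 9 genes kept its side of the threshold under all 14 alternatives, and CCND1, CDK4, CDK6 and CDC25A kept their direction. Their log2 fold changes ranged from -0.90 to -0.79 for CCND1, 0.43 to 0.57 for CDK4, -0.72 to -0.60 for CDK6 and -0.59 to -0.47 for CDC25A, with a highest adjusted p of 0.0274. CCND2 came nearest to a call without XYA1353 replicate 3 (adjusted p = 0.0546, range to 0.263). CCND3, CCNE2 and CDK2, not called, changed sign under 2, 3 and 1 alternatives. With the replicate block 4286 genes were called in all against 4210 without it, and the same 4 of the 9, at adjusted p = 0.00519 for CCND1, 0.00653 for CDK4, 0.00658 for CDK6 and 0.0117 for CDC25A. Besides CDKN2C, RBL2, CCNC and FBXO4, the block changed no call of a member, or of a gene named from the lists of G1/S regulators, other cyclins and kinases, and S phase entry genes. Other genes named in the text, such as LTO1 and CIRBP, were not looked up in that fit. Leaving out 1 library gave 2608 to 4460 calls in all, the fewest without XYA1353 replicate 2, 4 of the 9 each time, 7 to 13 of the G1/S regulators (7 without XYA1353 replicate 1, 8 without XYA1353 replicate 2 or any 1 control library), 6 to 13 of the other cyclins and kinases and 9 to 13 of the S phase entry genes. Scaling moved the median change of all genes by less than 0.1 on the log2 scale. The number of libraries, 3 a group, and the unknown depth limit the precision.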
